A study of Mus musculus with 16 samples.

Results

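The genes of the endothelium and of the early blood-vessel lineage Tek, Tie1, Kdr, Flt1, Pecam1, Cdh5, Eng, Cd34, Sox17 and Tal1 were followed across whole mouse embryos with and without the chromatin protein Smchd1. The genes were taken by name, through every probe that the platform annotation assigns to them: 10 genes on 13 probes, of 16593 genes on 23978 named probes. A gene was tested where a probe exceeded 7 on the log2 scale on at least 4 of the 16 arrays, which left 7 of the 10 genes on 8 probes, among 6999 genes tested in all.

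The embryos were collected at embryonic day 9.5 and each gave total RNA for 1 Illumina MouseRef-8 array. The mutant embryos carried 2 copies of MommeD1, an ENU-induced stop mutation in Smchd1, and were female (4 arrays) or male (4 arrays). They were set against wildtype females (4 arrays) and wildtype males (4 arrays). All groups shared the inbred FVB/n background. The allele was present in every cell from the zygote, and mutants came from matings of heterozygous parents, so no cell type was targeted. The arrays came from 2 chips, and each chip held 2 arrays of every group. Values are the normalised log2 signals of the study. A whole embryo mixes all cell types, so fewer endothelial cells and less RNA per endothelial cell cannot be told apart in any result below.

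Endothelial cells line the first vessels, which form while primitive red cells enter the circulation from the yolk sac. VEGF ligands act on the receptor tyrosine kinases Kdr (VEGFR2) and Flt1 (VEGFR1) to drive the birth and sprouting of endothelium, with Flt1 holding ligand away from Kdr. Angiopoietins act on the receptor tyrosine kinase Tek (Tie2), with the related receptor Tie1 beside it, to stabilise and remodel vessels. Eng (endoglin) is a co-receptor for BMP and TGF-beta ligands, Cdh5 (VE-cadherin) and Pecam1 hold endothelial cells together, and Cd34 is a surface sialomucin of endothelium and blood progenitors. Sox17 is a transcription factor of arterial endothelium and of endoderm, and Tal1 is a transcription factor of blood and endothelial precursors and of erythroid cells.

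Smchd1 itself was read first as a check of the labels. Its main probe gave 7.34 to 7.60 in MommeD1 females and 9.78 to 9.98 in wildtype females, and 7.35 to 7.58 in MommeD1 males and 9.72 to 9.88 in wildtype males, on the log2 scale. The genotypes did not overlap in either sex, and the log2 fold change over both sexes was -2.38 ± 0.05 (SE, limma). A second, dimmer Smchd1 probe also separated the genotypes, at 6.04 to 6.46 in MommeD1 and 6.83 to 7.37 in wildtype embryos, and a further probe lay under the array median of 6.34 on every array. Array medians were alike (6.34 on all arrays), so depth in the sequencing sense does not apply and the number of arrays limits the precision. The labels do not say that replicates came from separate litters, and p-values measure the spread between these embryos.

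Between the genotypes, the vascular genes did not move as a block. Over both sexes Tek transcripts were lower in MommeD1 embryos and Eng transcripts were higher. The other 5 tested genes did not pass the threshold, which was an adjusted p below 0.05 (moderated test of limma, with the Benjamini-Hochberg correction across the 6999 genes). In females 1 of the 7 tested genes was called (Tek, lower), against 7.47% of all genes tested, and 5 of 7 had an unadjusted limma p under 0.05, against 25.0% of all genes. In males 0 of 7 were called, against 0.114% of all genes, and 2 of 7 had an unadjusted limma p under 0.05, against 11.2% of all genes. Over the mean of both sexes 2 of 7 were called (Tek lower, Eng higher), against 11% of all genes. Complete separation of the 4 MommeD1 from the 4 wildtype arrays was seen for 3 of 7 genes in females (Tek, Eng and Tal1), where 15.1% of all genes separated, and for 1 of 7 in males (Tek), where 6.32% did. Tek was the only tested member that separated in the same direction in both sexes, as did 1.94% of all genes. The median log2 fold change of the 7 genes was -0.05 in females and 0.06 in males, beside -0.0085 and 0.00083 over all genes, with 3 genes above 0 and 4 below in females and 4 above and 3 below in males.

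**Figure D1:**
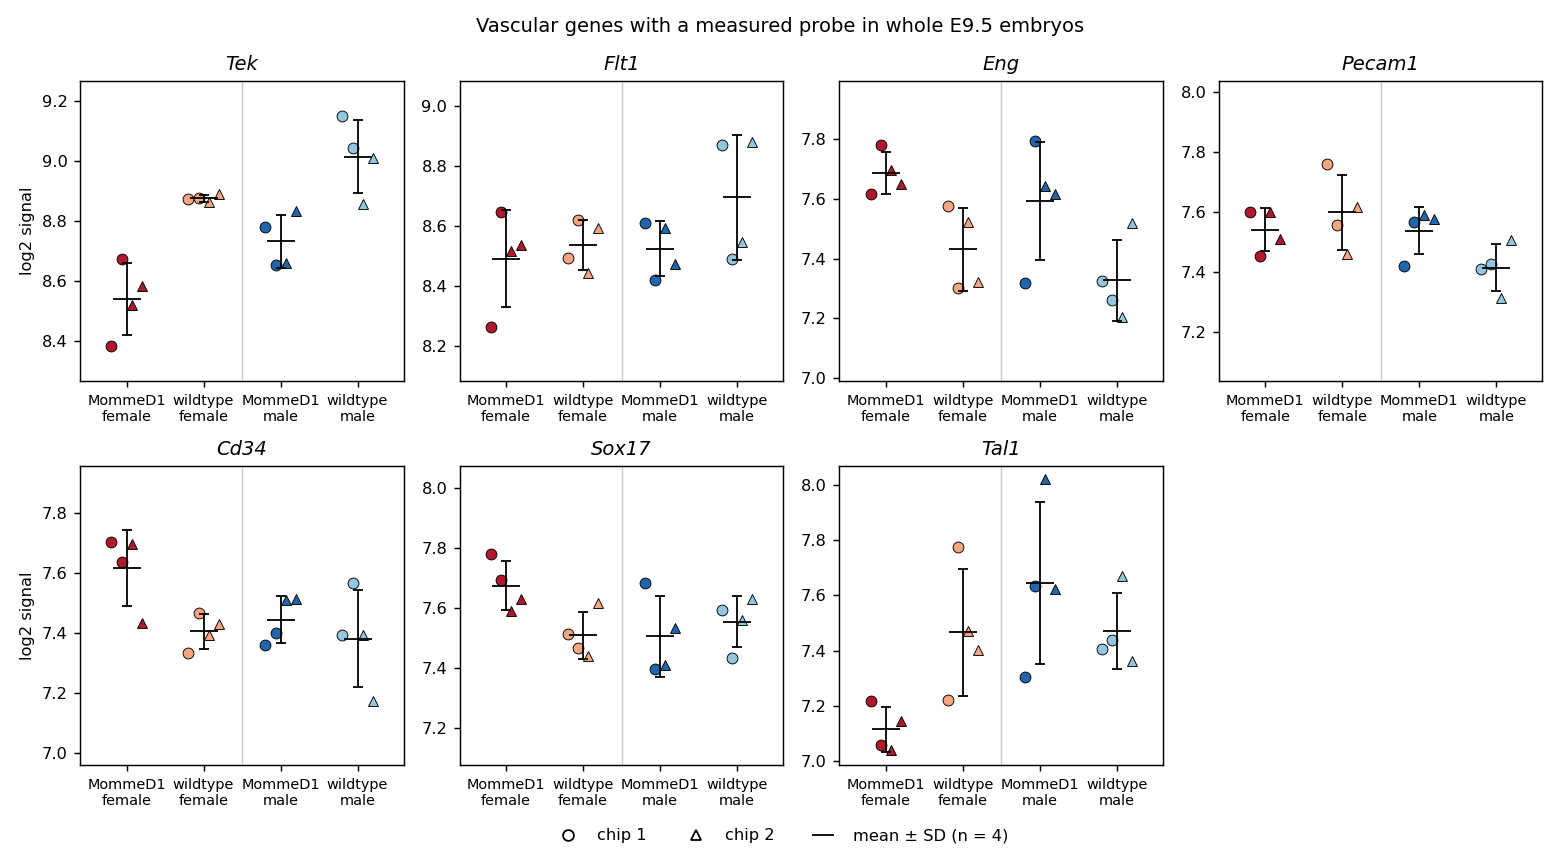
Log2 signal of the 7 vascular genes with a probe past the filter (vertical axis) in MommeD1 females, wildtype females, MommeD1 males and wildtype males (4 arrays each). Points are single arrays, circles for chip 1 and triangles for chip 2, and the line with bars is the mean ± SD. All panels span at least 1 log2 unit, and only Tek separates the genotypes in both sexes.

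Tek encodes the angiopoietin receptor of endothelial cells. Its log2 signal was 8.39, 8.67, 8.52 and 8.58 in MommeD1 females, against 8.87, 8.88, 8.86 and 8.89 in wildtype females. It was 8.78, 8.66, 8.66 and 8.84 in MommeD1 males, against 9.15, 9.05, 8.86 and 9.01 in wildtype males. Every MommeD1 embryo lay below every wildtype embryo of its own sex, by a wide margin in females and by a narrow one in males, where the highest mutant (8.84) came close to the lowest wildtype (8.86). The log2 fold change was -0.34 ± 0.07 in females (SE, n = 4 against 4, limma adjusted p = 0.0071), which is 1.26-fold lower. In males it was -0.28 ± 0.07, 1.22-fold lower, with an unadjusted limma p of 6.8e-04 and an adjusted p of 0.116, so the male comparison alone did not pass the threshold. Averaged over the sexes it was -0.31 ± 0.05 (95% interval -0.41 to -0.21, limma adjusted p = 8.1e-04), in rank 42 of 6999 genes by p. The female and male effects differed by -0.05, with a 95% interval of -0.26 to 0.15 and a limma adjusted p of 0.947, so a sex difference in this effect was not detected and differences within that interval remain possible.

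The 4 group means of Tek ran, in rising order, 8.54 ± 0.12 in MommeD1 females, 8.73 ± 0.09 in MommeD1 males, 8.88 ± 0.01 in wildtype females and 9.02 ± 0.12 in wildtype males (SD, n = 4 each). The wildtype sexes differed by -0.14, females minus males (95% interval -0.28 to 0.01, limma adjusted p = 0.999), so the order of these neighbours was not resolved, and the 2 mutant sexes were not compared. Wildtype females were the tightest group and spanned 8.86 to 8.89. On chip 1 the female difference was -0.35 and the male difference -0.38, and on chip 2 they were -0.33 and -0.19 (2 embryos per group and chip). The direction was therefore the same in all 4 strata, and the smallest step was that of males on chip 2. With only 8 arrays on a chip, neither chip alone gave a call for Tek.

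Some arrays carried more RNA of yolk sac endoderm, the lineage that makes apolipoproteins and transferrin around the embryo. A score over 7 such genes (mean deviation from each gene's mean, log2) ranged from -1.04 to 2.54 in MommeD1 females against -0.75 to 0.71 in wildtype females, and from -1.14 to 1.47 in MommeD1 males against -1.12 to 1.44 in wildtype males. The 3 highest arrays were MommeD1 female 2, MommeD1 male 1 and wildtype male 3. Without these 3 arrays the Tek difference was -0.38 in females (limma adjusted p = 0.0047), -0.35 in males (0.0472) and -0.37 over both sexes (5.8e-04). The matching values for Eng were 0.22 in females (limma adjusted p = 0.122), 0.31 in males (0.133) and 0.27 over both sexes (0.0119). For Tek, the arrays left out were the highest MommeD1 female (8.67), the lowest wildtype male (8.86) and a MommeD1 male above its group mean (8.78 beside 8.73). Leaving them out therefore widens the Tek difference whatever their yolk sac RNA. The part of that RNA in the Tek and Eng values was not tested.

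Eng encodes endoglin, the BMP and TGF-beta co-receptor of endothelium. Its log2 signal was 7.62, 7.78, 7.70 and 7.65 in MommeD1 females, against 7.57, 7.30, 7.52 and 7.32 in wildtype females. It was 7.32, 7.79, 7.64 and 7.61 in MommeD1 males, against 7.33, 7.26, 7.21 and 7.52 in wildtype males. The female groups did not overlap, whereas in males 1 mutant (male 1) lay among the wildtype embryos and the other 3 lay above all of them. Eng differed by 0.26 ± 0.09 log2 units in females (limma adjusted p = 0.0866) and 0.26 ± 0.09 in males (adjusted p = 0.266), neither past the threshold. Over both sexes it was 0.26 ± 0.06, 1.20-fold higher, with a 95% interval of 0.12 to 0.39 and a limma adjusted p of 0.0164. The difference between the sexes was -0.01, with a 95% interval of -0.28 to 0.26. The mean step was nearly the same in each stratum of 2 embryos per group: 0.26 in females and 0.26 in males on chip 1, and 0.25 and 0.27 on chip 2. Single embryos were less alike: on chip 1 the MommeD1 males were at 7.32 and 7.79, beside wildtype males at 7.33 and 7.26.

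**Figure D2:**
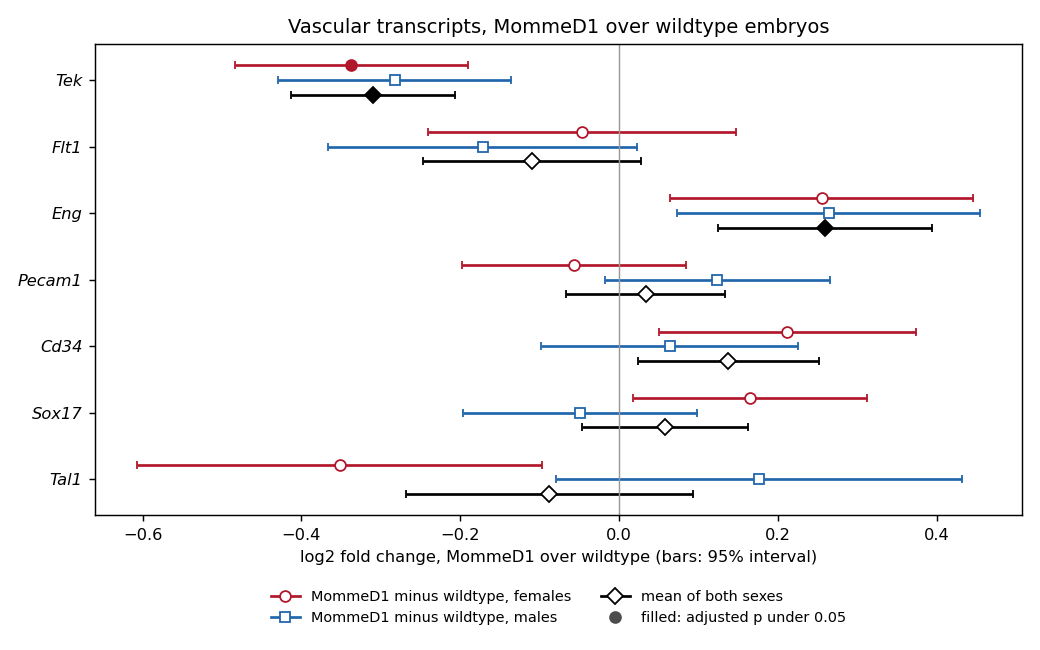
Log2 fold change of MommeD1 over wildtype embryos (horizontal axis) for the 7 tested vascular genes (vertical axis), in females (circles), males (squares) and as the mean of both (diamonds). Bars are 95% intervals of the limma fit and filled symbols have an adjusted p under 0.05: Tek in females (-0.34) and over both sexes (-0.31), and Eng over both sexes (0.26).

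Tek and Eng moved in opposite directions, so the bases just upstream of their annotated starts are shown. Endothelial genes are commonly bound by ETS transcription factors, which recognise the core GGAA. The letters GGAA or their reverse complement TTCC were searched on both strands in the 250 bases before the start of each gene (RefSeq, GRCm38.p6) and are in capitals. The Tek window is chr4:94739039-94739288 and the Eng window chr2:32646345-32646594, both on the plus strand.

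Tek: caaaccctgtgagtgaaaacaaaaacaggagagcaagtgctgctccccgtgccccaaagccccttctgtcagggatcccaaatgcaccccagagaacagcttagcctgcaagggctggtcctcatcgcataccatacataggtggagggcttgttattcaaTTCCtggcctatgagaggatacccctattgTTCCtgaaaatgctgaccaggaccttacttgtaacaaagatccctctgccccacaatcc

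Eng: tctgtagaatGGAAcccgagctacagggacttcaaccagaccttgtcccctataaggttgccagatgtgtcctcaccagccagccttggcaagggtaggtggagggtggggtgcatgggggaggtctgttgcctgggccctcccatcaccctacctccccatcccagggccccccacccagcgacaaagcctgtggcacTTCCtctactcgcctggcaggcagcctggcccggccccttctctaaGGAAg

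The Tek window held 2 matches and the Eng window 3. At least 2 matches were present in 76.8% and at least 3 in 54.7% of all 32851 windows of the same length, with a median of 3, so neither count sets these genes apart. Of the 10 genes, 7 had a window in this table. Tie1 had the most matches, 7, a count reached by 3.82% of all windows, Cd34 had 5, Kdr and Flt1 had 4 each, and the 2 windows of Tal1 had 4 and 3. The letters GATAA (or TTATC), the core of GATA factors, shared no base with an ETS match and occurred once, in 1 Tal1 window, beside 22.6% of all windows. A match is a run of letters and not a measured binding site.

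Flt1 is the decoy-like VEGF receptor. Its main probe gave 8.26, 8.64, 8.52 and 8.53 in MommeD1 females, against 8.49, 8.62, 8.44 and 8.59 in wildtype females, and the groups overlapped. In males it gave 8.61, 8.42, 8.59 and 8.47 in MommeD1 embryos, against 8.87, 8.49, 8.54 and 8.88 in wildtype embryos, again with overlap although the top 2 were wildtype. Over both sexes the Flt1 log2 fold change was -0.11 (95% interval -0.25 to 0.03, limma adjusted p = 0.298). The second Flt1 probe lay between 5.56 and 5.89 on all 16 arrays, below the array median, and was not tested. A soluble form of Flt1 exists, and which form each probe reads was not determined.

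Pecam1, an adhesion molecule of endothelial junctions, did not pass the threshold in any comparison. Its main probe gave 7.60, 7.45, 7.60 and 7.51 in MommeD1 females, against 7.76, 7.56, 7.46 and 7.62 in wildtype females. It gave 7.42, 7.57, 7.59 and 7.57 in MommeD1 males, against 7.41, 7.43, 7.31 and 7.50 in wildtype males. The groups overlapped in both sexes, although 3 of 4 MommeD1 males lay above all wildtype males. Pecam1 differed by -0.06 log2 units in females (95% interval -0.20 to 0.08) and 0.12 in males (-0.02 to 0.26), and over both by 0.03 with a 95% interval of -0.07 to 0.13 (limma adjusted p = 0.696). A second probe, past the filter but dimmer and so not used to represent the gene, averaged 6.87 ± 0.11 in MommeD1 females and 6.95 ± 0.18 in wildtype females, and 6.96 ± 0.02 in MommeD1 males and 7.01 ± 0.06 in wildtype males (SD, n = 4 each). In wildtype embryos the main probe was 0.18 higher in females than in males (95% interval 0.04 to 0.33), with an unadjusted limma p of 0.0133 and an adjusted p of 0.999.

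Cd34, the progenitor and endothelial sialomucin, gave 7.71, 7.64, 7.70 and 7.43 in MommeD1 females, against 7.33, 7.47, 7.39 and 7.43 in wildtype females. Of the mutants, 3 lay above all wildtype females and MommeD1 female 4 lay within their range. In males it gave 7.36, 7.40, 7.51 and 7.51 in MommeD1 embryos, against 7.39, 7.57, 7.39 and 7.17 in wildtype embryos, with full overlap. Cd34 differed by 0.21 ± 0.08 log2 units in females (limma adjusted p = 0.0932) and 0.06 ± 0.08 in males (0.793), and the difference between them (0.15, 95% interval -0.08 to 0.38) did not pass. Leaving out MommeD1 female 4, the mutant within the wildtype range, raised the female value to 0.27 with a limma adjusted p of 0.0466. It was the only 1 of 8 such omissions that gave a call. Over the 8 the value ran from 0.18 to 0.27 and the limma adjusted p up to 0.198.

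Sox17, the arterial and endodermal transcription factor, gave 7.78, 7.69, 7.59 and 7.63 in MommeD1 females, against 7.51, 7.47, 7.44 and 7.62 in wildtype females. In males it gave 7.68, 7.39, 7.41 and 7.53 in MommeD1 embryos, against 7.59, 7.43, 7.56 and 7.63 in wildtype embryos. The groups overlapped in both sexes, and the log2 fold change was 0.17 ± 0.07 in females (limma adjusted p = 0.149) and -0.05 ± 0.07 in males (0.826). The second probe lay under the filter, at 6.44 to 7.14 over the 16 arrays, and its genotypes overlapped in both sexes. Gut endoderm genes, which mark another site of Sox17, scored -0.34 to 0.29 in MommeD1 females against -0.27 to 0.22 in wildtype females over 4 tested genes. Of the 4, 0 were called in either sex or over both, against 7.47% of all genes in females, 0.114% in males and 11% over both. The part of gut endoderm in the Sox17 values was not tested.

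Tal1 spanned the widest range of signal of the tested members. Its log2 signal was 7.22, 7.06, 7.04 and 7.15 in MommeD1 females, against 7.22, 7.77, 7.47 and 7.40 in wildtype females. It was 7.30, 7.63, 8.02 and 7.62 in MommeD1 males, against 7.40, 7.44, 7.67 and 7.36 in wildtype males. MommeD1 females were lowest, although their highest embryo and the lowest wildtype female were both at 7.22, and the male groups overlapped. Tal1 differed by -0.35 ± 0.12 log2 units in females (limma adjusted p = 0.0789) and 0.18 ± 0.12 in males (0.607). Without MommeD1 male 3 the male value was 0.05, and without MommeD1 male 1 it was 0.29, neither past the threshold. The female effect minus the male effect was -0.53 ± 0.17 (95% interval -0.89 to -0.17), with an unadjusted limma p of 0.0064 and an adjusted p of 0.379. In that comparison 0 of 7 members were called, against 0.357% of all genes, and 2 of 7 (Tal1 and Sox17) had an unadjusted limma p under 0.05, against 7.93% of all genes.

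Tal1 is also used by primitive red cells, whose genes moved between embryos. A score over 8 tested erythroid and blood genes ranged from -0.11 to 0.00 in MommeD1 females against -0.18 to 0.22 in wildtype females, and from -0.20 to 0.57 in MommeD1 males against -0.19 to 0.13 in wildtype males. The embryo with the highest Tal1, MommeD1 male 3 (8.02), had the highest score (0.57), and the wildtype female with the highest Tal1 (7.77) had the highest score among wildtype embryos (0.22). Of these 8 genes 7 had a positive male fold change, with a median of 0.23, and 0 were called, against 0.114% of all genes. Their female median was -0.0084, with 3 positive and 5 negative. The median score was -0.10 in MommeD1 and also in wildtype females, the sex in which Tal1 differed by -0.35. In females 1 of the 8 was called, against 7.47% of all genes: Tfrc (transferrin receptor), at -0.38 ± 0.10 (limma adjusted p = 0.0240). Tfrc was also called over both sexes at -0.24 ± 0.07 (0.0347). These calls held in 4 of 8 female and 6 of 16 both-sex fits with 1 array left out (limma adjusted p up to 0.0754 and 0.0695), and ended without the 3 arrays highest in yolk sac endoderm (0.0871 and 0.136). The defining erythroid factor Gata1 lay under the filter. The part of red cell number in the Tal1 values was not tested.

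**Figure D3:**
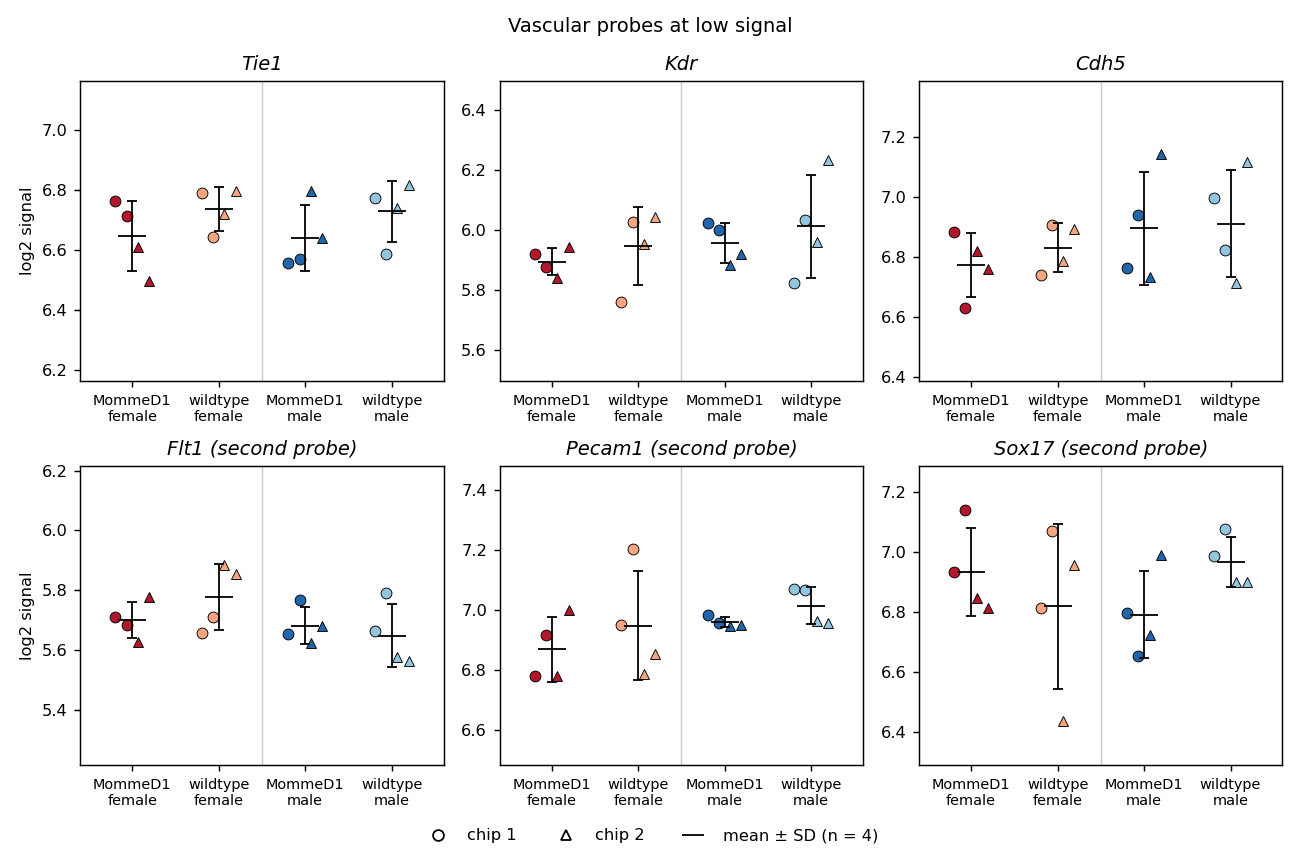
Log2 signal (vertical axis) of Tie1, Kdr and Cdh5 and of the second probes of Flt1, Pecam1 and Sox17, in MommeD1 females, wildtype females, MommeD1 males and wildtype males (4 arrays each, circles for chip 1, triangles for chip 2, lines mean ± SD). Genotypes overlap in every panel, and most points lie under the filter value of 7.

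Tie1, Kdr and Cdh5 had only dim probes, so that the main VEGF receptor, the second TIE receptor and VE-cadherin were not among the tested genes. In a fit of every probe without the filter, none of them passed the threshold in any comparison (limma adjusted p of 0.50 or more). Kdr lay between 5.84 and 5.94 in MommeD1 females against 5.76 and 6.04 in wildtype females, and between 5.88 and 6.02 in MommeD1 males against 5.82 and 6.23 in wildtype males, under the array median of 6.34 throughout. Such values do not show that the transcript was absent, since a probe's signal cannot be set against that of another probe. Tie1 lay between 6.50 and 6.76 in MommeD1 females against 6.64 and 6.80 in wildtype females, and between 6.56 and 6.80 in MommeD1 males against 6.59 and 6.82 in wildtype males. Cdh5 lay between 6.63 and 6.88 in MommeD1 females against 6.74 and 6.91 in wildtype females, and between 6.73 and 7.14 in MommeD1 males against 6.71 and 7.12 in wildtype males. Genotypes overlapped for all 3 genes in both sexes. No fold is given, since both groups were near or under the filter value.

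Neither wildtype sex nor chip moved the vascular genes past the threshold. Between wildtype females and wildtype males 0 of 7 were called, against 0.0714% of all genes, and 1 of 7 (Pecam1) had an unadjusted limma p under 0.05, against 2.80% of all genes. Between chip 2 and chip 1 0 of 7 were called, against 2.59% of all genes, and 0 of 7 had an unadjusted limma p under 0.05, against 19.0% of all genes. The chip 2 minus chip 1 difference was -0.03 for Tek and 0.02 for Eng.

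The other genes of the vascular pathways were described from 6 lists of 107 genes, of which 66 had a tested probe. In females 3 of these 66 were higher and 1 lower (6.06%, beside 7.47% of all genes). In males 0 of 66 were called, beside 0.114% of all genes. Over both sexes 3 were higher and 2 lower (7.58%, beside 11% of all genes). The median log2 fold change of the 66 genes over both sexes was -0.05, beside -0.0038 for all genes. Whether these shares differ from those of all genes was not tested, and with 66 genes each rests on few calls.

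Among the partners of Tek, 2 of 6 genes of the TIE and angiopoietin pathway were tested and 0 were called. Angpt1, the activating ligand, gave -0.16 ± 0.08 in females (limma adjusted p = 0.214) and -0.10 ± 0.08 in males (0.641), and Angpt2, the context-dependent ligand, gave -0.06 and -0.05. Among 5 tested VEGF ligands, co-receptors and mediators 1 was called over both sexes, against 11% of all genes. It was Vegfb, a VEGF ligand of Flt1, at 0.20 ± 0.05 (limma adjusted p = 0.0249). Vegfb gave 10.63 to 10.77 in MommeD1 males and 10.48 to 10.58 in wildtype males, which did not overlap. In females it gave 10.72 to 10.83 in MommeD1 and 10.34 to 10.75 in wildtype embryos, which did. That call ended without a filter (0.0551) and without the 3 arrays highest in yolk sac endoderm (0.0620). Vegfa, the main ligand of Kdr, gave 0.06 in females and -0.19 in males, with limma adjusted p of 0.697 and 0.408. Of 10 tested genes of endothelial BMP and TGF-beta signalling, which includes the partners of Eng, 0 were called in females, in males or over both sexes, and 7 had a negative and 3 a positive fold change over both sexes (median -0.06). The ALK1 receptor gene Acvrl1 had only a dim probe. Of 13 tested Notch and arteriovenous genes 0 were called in any of these comparisons (median -0.05 over both sexes). Of all genes tested, 7.47% were called in females, 0.114% in males and 11% over both sexes. At these shares, 0 calls in lists of 2, 10 and 13 genes do not show that a pathway was unchanged.

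The transcription factor list had 17 tested genes, of which 12 had a negative fold change in females and 11 in males. Mef2c, a factor of heart and endothelium, gave 8.89, 8.80, 8.88 and 8.94 in MommeD1 females, against 9.21, 9.24, 9.23 and 9.20 in wildtype females, and 9.31, 8.73, 8.73 and 8.66 in MommeD1 males, against 9.24, 9.14, 9.25 and 9.30 in wildtype males. All MommeD1 females and 3 of 4 MommeD1 males lay below every wildtype embryo, and MommeD1 male 1 (9.31) lay level with the highest wildtype embryo (9.30). The log2 fold change was -0.34 ± 0.10 in females (limma adjusted p = 0.0419), -0.37 ± 0.10 in males (0.164) and -0.36 ± 0.07 over both sexes (0.0040). Without MommeD1 male 1 the male value was -0.52 with a limma adjusted p of 5.7e-05. It was the only 1 of 8 male omissions that gave a call, and over the 8 the limma adjusted p ran up to 0.431. Leaving out any 1 of the 8 female arrays ended the female call, with limma adjusted p from 0.0606 to 0.0966. These fits all kept MommeD1 male 1 and shared 1 estimate of spread over the 4 groups. Over all 21 alternatives the female call held in 9, with limma adjusted p from 0.0061 to 0.314 and the same direction throughout.

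Gata2, a factor of blood and endothelial precursors, was higher in MommeD1 females at 0.30 ± 0.07 (limma adjusted p = 0.0107) and over both sexes at 0.18 ± 0.05 (0.0226), while males gave 0.06 ± 0.07. The difference between the sexes was 0.25 ± 0.10 with a limma adjusted p of 0.515, so it was not shown. Ldb1, the adaptor that joins Tal1, Lmo2 and GATA factors, was lower over both sexes at -0.14 ± 0.04 (limma adjusted p = 0.0255), and its call ended without a filter (0.0862), without the 3 arrays highest in yolk sac endoderm (0.0771), and without MommeD1 female 2 (0.0510) or MommeD1 male 2 (0.0504). The Gata2 call over both sexes also ended without a filter (0.0569). Of the 17 factors 2 were called in females (1 higher, 1 lower), against 7.47% of all genes, and 0 in males, against 0.114%. Over both sexes 3 were called (1 higher, 2 lower), against 11% of all genes. The median of the 17 factors was -0.10 in females and -0.09 in males, beside -0.0085 and 0.00083 for all genes. Their mean deviation per array was -0.07 to -0.00 in MommeD1 females and 0.02 to 0.05 in wildtype females, which did not overlap. In males it was -0.07 to -0.01 in MommeD1 and -0.05 to 0.10 in wildtype embryos, which did. How often a score of 17 genes separates was not computed, and of single genes 15.1% separated in females.

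**Figure D4:**
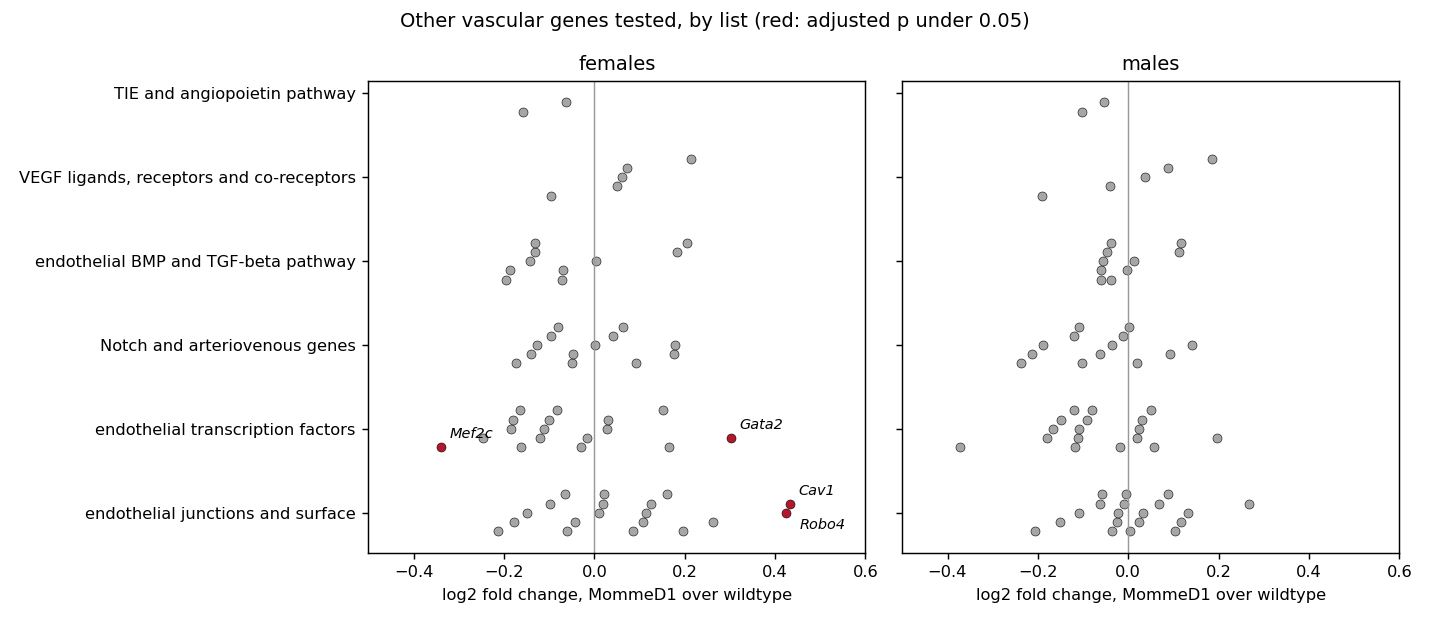
Log2 fold change of MommeD1 over wildtype embryos (horizontal axis) for the 66 tested genes of 6 vascular lists (rows; height within a row only separates points), in females (left) and males (right). Red points have a limma adjusted p under 0.05: Mef2c (-0.34), Gata2 (0.30), Robo4 (0.43) and Cav1 (0.43) in females, and 0 genes in males.

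Robo4, the roundabout receptor of endothelial cells, was the junction and surface gene with the smallest p. It gave 8.59, 8.43, 8.42 and 8.36 in MommeD1 females, against 8.03, 7.97, 8.06 and 8.04 in wildtype females, and 8.12, 8.32, 8.28 and 7.95 in MommeD1 males, against 7.69, 8.00, 7.87 and 8.04 in wildtype males. The female groups were far apart, and in males 3 of 4 mutants lay above all wildtype embryos. The log2 fold change was 0.43 ± 0.08 in females (limma adjusted p = 0.0051), 0.27 ± 0.08 in males (0.220) and 0.35 ± 0.06 over both sexes (0.0013). Cav1, the coat protein of caveolae, which is also made by many other cells, was higher in females at 0.43 ± 0.13 (limma adjusted p = 0.0492). That call ended when any 1 of the 8 female arrays was left out (0.0541 to 0.128). Males gave 0.09, and -0.20 within chip 2, and the mean of both sexes was 0.26, none of them past the threshold. The lowest wildtype values of Cav1 were near the filter value of 7, at 7.03 in females and 6.94 in males. The other 17 of 19 tested genes of this list were not called in females, with a list median of 0.02. The 2 calls of 19 stand beside 7.47% of all genes.

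**Figure D5:**
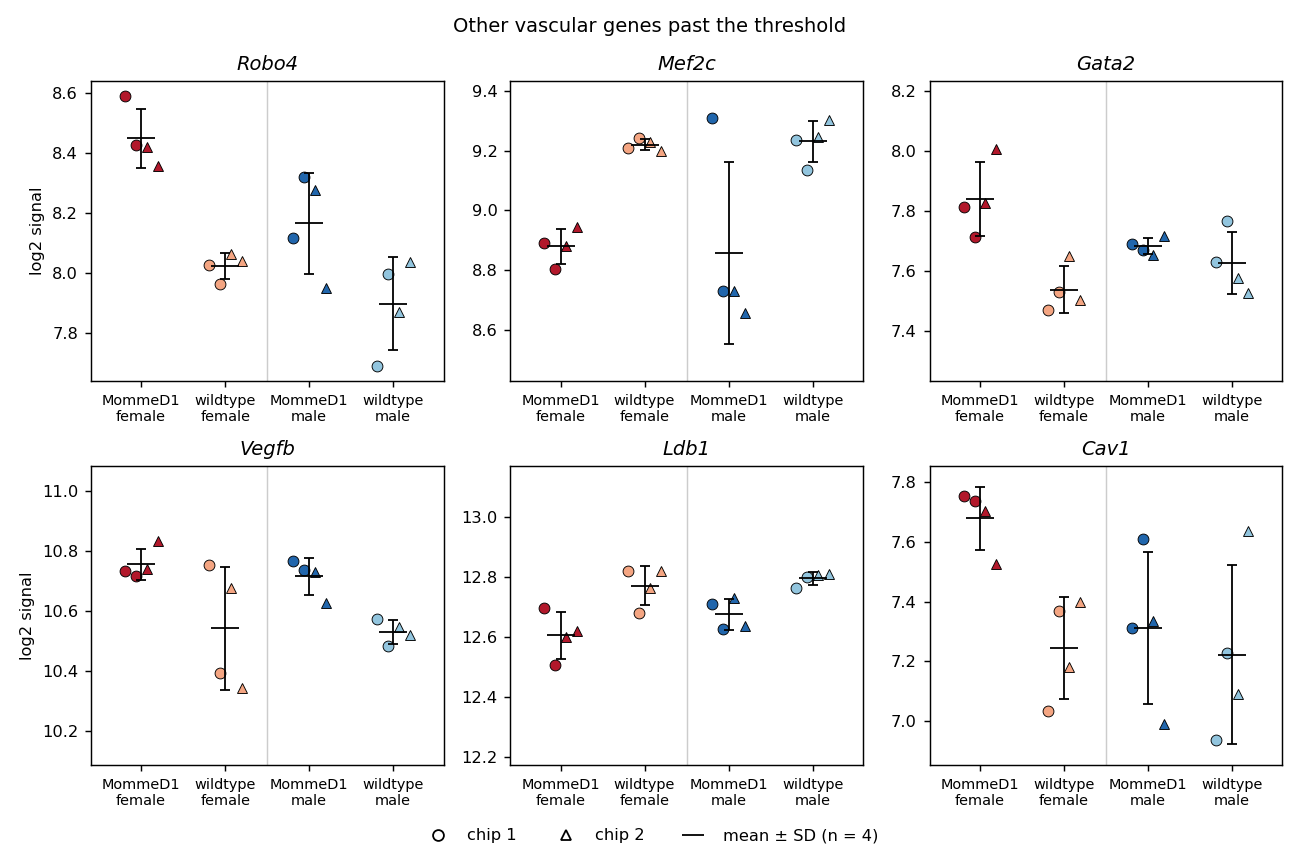
Log2 signal (vertical axis) of the 6 other vascular genes past the threshold, in MommeD1 females, wildtype females, MommeD1 males and wildtype males (4 arrays each, circles for chip 1, triangles for chip 2, lines mean ± SD). Robo4, Gata2 and Cav1 lie higher and Mef2c lower in MommeD1 females without overlap, and 1 MommeD1 male lies apart from the other 3 for Mef2c (9.31).

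Markers of the other cells of the embryo were read beside these results. Of 5 tested mural cell genes, which mark the pericytes and smooth muscle around vessels, 0 were called and the median over both sexes was -0.01. Of 7 tested yolk sac endoderm genes 0 were called, although all 7 had a positive female fold change (median 0.39) and 3 of 7 a positive male one. The shares over all genes, for both lists, were 7.47% in females, 0.114% in males and 11% over both sexes. Of 6 tested cardiac muscle genes 2 were called in females, against 7.47% of all genes, and 0 in males, against 0.114%. Both were higher, Myl7 at 0.56 ± 0.09 (limma adjusted p = 9.3e-04) and Actc1 at 0.30 ± 0.07 (0.0181). Of the 6, 4 had a positive and 2 a negative fold change in females (median 0.06), and 2 and 4 in males (median -0.05). Over both sexes 1 of the 6 was called, against 11% of all genes: Myl7, at 0.37. The cardiac score was -0.01 to 0.22 in MommeD1 females against -0.13 to 0.05 in wildtype females. The Actc1 call ended without MommeD1 female 2 (0.0582), wildtype female 1 (0.0521) or wildtype female 4 (0.0567), and without the 3 arrays highest in yolk sac endoderm (0.0635). No macrophage or trophoblast gene of the lists was past the filter, including Ptprc, Adgre1 and Tpbpa. Only 4 of 6 macrophage and 3 of 6 trophoblast genes were found on the array, so these cells may have been present unseen. The part of any of these cells in the Tek, Eng, Mef2c or Robo4 values was not tested.

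Over the 16 arrays, with each group's mean removed, the gene most like Tek was Cntnap2, a neurexin-family cell adhesion gene (Pearson r = 0.85, Spearman rho = 0.69). It was followed by Lamc1, the laminin gamma chain of basement membranes (r = 0.83, rho = 0.75), Dusp28 (r = 0.82, rho = 0.82), Cdc42bpb, a kinase downstream of the GTPase Cdc42 (r = 0.82, rho = 0.84), and Nfatc2ip (r = 0.82, rho = 0.76). These were the top 5 of 6998 genes ranked, and none passed adjustment over that ranking (permutation p of r from 1.4e-04 to 0.0031, adjusted p from 0.327 to 0.608). Without the 2 arrays farthest from the median of Tek the r of these 5 genes ranged from 0.70 to 0.83. Among the other tested members Flt1 was the most like Tek (r = 0.60, rank 127). Sox17 and Eng gave 0.14 and 0.03, and Cd34, Pecam1 and Tal1 gave -0.09, -0.14 and -0.45.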

How the data were processed

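Total RNA of 16 whole embryos was hybridised to 16 arrays on 2 chips. The authors deposited normalised log2 values, with beadarray and limma named as software. The background correction and normalisation are not given in the sources used here. All arrays shared the same minimum and maximum, and their medians lay between 6.339 and 6.340, a pattern that quantile normalisation leaves. A further 32 columns of signal and detection p are headed by serial numbers, cannot be matched to embryos through the labels and were not used.

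Probes above 7 on at least 4 of 16 arrays were kept (9785 of 25697, 559 of them without a gene). By the platform annotation 23978 probes had 1 symbol, 1719 had none and 0 had several. Of the named probes 23962 were found in the GRCm38.p6 gene table. For each gene the brightest of the kept probes (mean of all arrays) was tested. Linear modelling used lmFit and eBayes of limma 3.58.1 (R 4.3.3) on all arrays with 4 groups of genotype and sex, leaving 12 residual degrees of freedom. Chip was a term only in the chip comparison. Filter, probe choice, blocks, weights, moderation, single chips and left-out arrays were tried as alternatives. The fit was tested on simulated data.

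All 10 genes were to be named with every probe, together with Smchd1, the genes of the 6 other vascular lists past the threshold, and the 5 genes most like Tek. Tfrc, Myl7, Actc1 and list members given as examples were named after their values were seen. The genes, lists and tests were chosen with earlier results of these data known.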

Additional observations from a re-analysis of the deposited data

Results flagged for a closer look

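One value stood apart from its group by Dixon's test at the 95% level: Pecam1 in MommeD1 male 1, at 7.42 on the log2 scale, beside 7.57 to 7.59 in the other 3 MommeD1 males. It lay within the range of the wildtype males, and 1 of 52 groups tested in this way was marked, where chance marks about 1 in 20.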

How the results depend on the processing

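The direction of every called member held under all alternatives run, and of 971 alternative values of the 42 member results 6 lost the threshold and 3 gained it, while 44 had another sign than reported, none of them called under either setting, and 0 called values reversed. The count of members called over both sexes (2) was 1 with a filter at 8, where Eng was not tested, and 0 within chip 1 and 0 within chip 2, which hold 8 arrays each (Tek limma adjusted p = 0.0910 and 0.0761, Eng 0.298 and 0.110). The count in females (1) was 0 within chip 1 and 0 within chip 2, 2 when only the female arrays were fitted (Tek, and Tal1 at 0.0491), and 1 to 2 with a replicate left out (Cd34 without MommeD1 female 4). The count in males (0) was 1 (Tek) once the 3 arrays with the most yolk sac endoderm signal were dropped. With single arrays left out, limma adjusted p ran from 0.0050 to 0.0229 for Tek in females, from 0.0732 to 0.365 for Tek in males and from 0.0025 to 0.0370 for Eng over both sexes. Whether replicate numbers pair the samples was not resolved. Same-numbered deviations correlated at 0.0017 to 0.40 in females (over 0.1 in 2 of 4 pairs) and -0.07 to 0.17 in males (1 of 4). The wildtype embryo most like a mutant had its own number for 2 of 4 MommeD1 females and 1 of 4 MommeD1 males. With a replicate block Tek gave a limma adjusted p of 0.0084 in females and 0.146 in males and Eng 0.0230 over both sexes, no member call changed, and 616, 8 and 887 genes were called in females, males and over both sexes, against 523, 8 and 770 without it. Over all genes the female count was 287 with no filter, 25 within chip 1, 42 within chip 2, 326 without the 3 arrays and 293 to 449 with a replicate left out. Over both sexes it was 410 with no filter, 19 and 91 within chips 1 and 2, and 519 to 858 with a replicate left out. With chip as a block the counts were higher, at 706 in females, 14 in males and 951 over both sexes. With every probe past the filter (9785 probes) they were 731, 13 and 1045. The male count ran from 3 within chip 1 to 42 with array weights, and from 6 to 58 with a replicate left out. The count for the difference between sexes ran from 0 within each chip to 53 with every probe, for wildtype sex from 2 within each chip to 8 with every probe, and for chip from 13 without the 3 arrays to 258 with trended moderation. The 36 results of the 9 other named genes, whose alternatives were chosen after seeing the data, gave 874 alternative values, of which 80 lost the threshold, 9 gained it and 0 called values reversed. The cause of these changes was not tested, except that single chips hold fewer arrays. The chip comparison could not be run within a chip or with chip or replicate as a block. Dim probes for Kdr, Tie1 and Cdh5 limit what can be said of them.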
